A study of Mus musculus with 2 samples.

Results

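The genes described here are the enzymes, transporters and regulators of glycolysis and the best-known targets of the hypoxia response, followed through leukocytes of mouse melanomas. Of 35 genes listed by symbol, 33 were among the 12584 genes of the count matrix, 18 of 20 glycolysis members and all 15 hypoxia members. Gapdh and Eno1 were not analysed here. Members were matched to the matrix by symbol and not by a measured value, but the list was chosen with earlier results of these data known.

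Live CD45+ cells were sorted from tumours of YUMM3.3, a mouse melanoma line with BrafV600E and without Cdkn2a, grown in C57BL/6 mice for 12 days and read by droplet single-cell RNA-seq. The NTT tumour grew from the parental line, naive to targeted therapy, and the RTT tumour from a derivative made resistant to targeted therapy and cultured with the BRAF inhibitor dabrafenib. Each group was 1 tumour and 1 library, with 2975 NTT cells (19634099 unique molecular identifiers, UMIs) and 4840 RTT cells (44712071 UMIs), so line, animal, sort and library cannot be told apart and no difference between tumours was tested. Intervals below are 95% intervals of counting error within these libraries and say nothing of the spread between mice.

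Glycolysis splits glucose into pyruvate in the cytosol, and lactate dehydrogenase and monocarboxylate transporters then dispose of the product as lactate. When oxygen is low, prolyl hydroxylases no longer mark HIF-1α for destruction, and it pairs with ARNT on the core motif RCGTG and raises glucose transport, most glycolytic enzymes, mitophagy receptors and angiogenic factors. In myeloid cells, inflammatory stimuli can engage the same programme with oxygen present, and activated monocytes and macrophages are known for high glycolytic flux.

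The core motif was looked for in promoter windows of 300 bases, from 250 before to 50 after each start site (RefSeq, GRCm38.p6), as ACGTG or GCGTG on either strand. Windows were found for 30 of the 33 members and not for Slc2a3, Bnip3l and Ndrg1, and that of Ero1l is listed under Ero1a. A match lay in 79.2% of the 24 glycolysis windows and 87.5% of the 16 hypoxia windows, against 43.8% of all 32851 windows and 60.3% of those of genes in the matrix. Windows of the members were also richer in G and C, with medians of 62.8% and 65.2% against 52.7% in all windows and 60.3% in those of genes in the matrix, and the motif itself holds CpG. Windows of 5 genes are printed here, of an enzyme that was nearly level between the tumours (Ldha) and of 4 members that were lower in RTT. Whether the number of matches goes with the size of the difference was not tested. Capitals mark the matches, and overlapping ones share letters, as in CACGTG, which also is the E-box. Where a gene had several windows, the one with most matches is shown. The windows are chr7:46845554-46845853 (plus strand, 7 matches) for Ldha, chr2:11502041-11502340 (minus, 4) for Pfkfb3, chr7:138909457-138909756 (minus, 5) for Bnip3, chr8:45999801-46000100 (minus, 4) for Ankrd37 and chr12:54203825-54204124 (minus, 1) for Egln3, each written 5′ to 3′ on the strand of its gene.
Ldha: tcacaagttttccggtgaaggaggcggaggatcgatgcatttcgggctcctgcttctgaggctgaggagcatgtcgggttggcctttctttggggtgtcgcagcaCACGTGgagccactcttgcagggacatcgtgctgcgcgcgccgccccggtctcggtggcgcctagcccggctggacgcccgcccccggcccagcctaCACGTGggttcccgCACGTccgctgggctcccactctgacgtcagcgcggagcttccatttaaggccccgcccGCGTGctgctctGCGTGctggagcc
Pfkfb3: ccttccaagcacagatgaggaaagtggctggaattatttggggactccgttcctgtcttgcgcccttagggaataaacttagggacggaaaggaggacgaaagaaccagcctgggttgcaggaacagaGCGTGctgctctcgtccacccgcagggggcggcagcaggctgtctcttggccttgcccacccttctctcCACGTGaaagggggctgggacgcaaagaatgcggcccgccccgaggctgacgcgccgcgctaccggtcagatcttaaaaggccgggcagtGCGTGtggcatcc
Bnip3: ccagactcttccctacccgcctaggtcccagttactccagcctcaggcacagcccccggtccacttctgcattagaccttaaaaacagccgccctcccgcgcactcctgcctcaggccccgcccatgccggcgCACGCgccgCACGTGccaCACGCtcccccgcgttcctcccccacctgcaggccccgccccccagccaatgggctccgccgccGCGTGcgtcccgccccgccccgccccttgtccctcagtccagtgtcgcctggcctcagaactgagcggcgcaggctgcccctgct
Ankrd37: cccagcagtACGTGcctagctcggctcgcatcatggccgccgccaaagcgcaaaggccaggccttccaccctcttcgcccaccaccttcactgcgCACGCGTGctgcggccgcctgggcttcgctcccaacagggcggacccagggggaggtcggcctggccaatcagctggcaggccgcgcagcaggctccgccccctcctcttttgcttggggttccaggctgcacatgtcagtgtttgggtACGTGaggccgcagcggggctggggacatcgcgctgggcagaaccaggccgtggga
Egln3: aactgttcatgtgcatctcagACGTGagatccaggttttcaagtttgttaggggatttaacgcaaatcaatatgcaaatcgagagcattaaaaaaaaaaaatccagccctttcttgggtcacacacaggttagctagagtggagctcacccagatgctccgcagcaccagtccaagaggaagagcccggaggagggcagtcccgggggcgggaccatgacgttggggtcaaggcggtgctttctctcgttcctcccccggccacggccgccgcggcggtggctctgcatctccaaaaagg
A match describes these letters only and is no evidence of binding in these cells.

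Over all cells, the hypoxia members and the members that supply or regulate glycolysis were lower in the RTT tumour, whereas the enzymes with the most UMIs were nearly level. Levels are not compared between genes, since 3′ counts carry no length. The 18 glycolysis members together held 9010 UMIs per 1000000 UMIs of the cells summed (CPM) in NTT against 7445 CPM in RTT cells, and the 15 hypoxia members held 2935 and 1827 CPM. Mif alone held 1217 and 957 CPM of the hypoxia sum, and the other 14 members held 1718 and 869 CPM. A gene was compared when it had at least 100 UMIs over both libraries, and it was called at a 2-fold ratio. In RTT, 5 of 18 glycolysis members and 9 of 15 hypoxia members were 2-fold or more lower, against 11.6% of all 10258 genes compared. None was 2-fold higher, against 9.09% of all genes. The median log2 ratio of RTT over NTT was -0.65 for the glycolysis members and -1.05 for the hypoxia members, and 0.08 for all genes.

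Among the transporters, Slc2a1, the basal glucose importer GLUT1, was at 166 CPM in NTT against 90.8 CPM in RTT cells (log2 ratio -0.87, -0.94 to -0.81). Slc2a3, the high-affinity importer GLUT3, was at 17.9 and 3.78 CPM (log2 ratio -2.25, -2.52 to -1.98). Of that gene, 44.0% of the NTT UMIs were in the 91 cells named Neutro, and the largest population in RTT, TAM_C1q, held 2.52 CPM. Slc16a3, the lactate exporter MCT4, was at 127 and 66.6 CPM (log2 ratio -0.93, -1.01 to -0.86), just short of the call.

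Of the hexokinases, which trap glucose as its phosphate, Hk2 and Hk3 were 2-fold lower over all cells and Hk1 fell short of the call. Hk2, the inducible isoform, was at 152 CPM in NTT against 71.9 CPM in RTT cells (log2 ratio -1.08, -1.15 to -1.01). Hk3, a myeloid isoform, was at 57.7 and 26.7 CPM (log2 ratio -1.11, -1.23 to -0.99), and Hk1, the widely expressed one, at 51.8 and 27.6 CPM (log2 ratio -0.91, -1.03 to -0.79). Within classes, Hk3 was called in macrophages only, Hk1 and Hk2 in monocytes only, and none in dendritic cells, where Hk3 had too few UMIs to be compared.

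The widest gap of any glycolysis member was that of Pfkfb3, a regulator of the phosphofructokinase step. Pfkfb3, whose product makes fructose 2,6-bisphosphate, the activator of phosphofructokinase, was at 102 CPM in NTT against 16.6 CPM in RTT cells (log2 ratio -2.61, -2.73 to -2.49). Pfkp, a phosphofructokinase subunit, was at 209 and 86.8 CPM (log2 ratio -1.27, -1.33 to -1.21), but it was called in no class, at log2 ratios of -0.91 in monocytes, -0.55 in macrophages and -0.49 in dendritic cells. Pfkl, the liver-type subunit, and Pfkfb4, a paralogue of Pfkfb3, did not reach the call, at log2 ratios of -0.69 and -0.57.

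Apart from Aldoc, the enzymes past that step differed less, and so did Gpi1, which acts before it. Aldoa, aldolase A, was at 1609.6 CPM in NTT against 1439 CPM in RTT cells (log2 ratio -0.16, -0.18 to -0.14). Pkm, pyruvate kinase, which had the most UMIs of the glycolysis members in NTT cells, was at 1707 and 1372 CPM (log2 ratio -0.32, -0.33 to -0.30), and Ldha, which turns pyruvate into lactate, at 1287 and 1158 CPM (log2 ratio -0.15, -0.17 to -0.13). Tpi1 and Gpi1, the isomerases, had log2 ratios of -0.17 and -0.12, Pgk1, phosphoglycerate kinase, -0.47, and Aldoc, a minor aldolase here by UMIs, -0.62. Pgam1, phosphoglycerate mutase, was the one glycolysis member above 0, at 674 and 727 CPM (log2 ratio 0.11, 0.08 to 0.14).

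Of the oxygen-sensing members, Hif1a itself was at 429 CPM in NTT against 186 CPM in RTT cells (log2 ratio -1.21, -1.25 to -1.16). Egln3, the prolyl hydroxylase PHD3, itself a HIF target, was at 22.2 and 4.03 CPM (log2 ratio -2.46, -2.72 to -2.21). Egln1, the main oxygen sensor PHD2, differed less, at 120.3 and 92.2 CPM (log2 ratio -0.38, -0.46 to -0.31).

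The remaining hypoxia members ranged widely. Ndrg1, a stress-induced gene linked to differentiation, was at 203 CPM in NTT against 46.4 CPM in RTT cells (log2 ratio -2.13, -2.21 to -2.05). Vegfa, the angiogenic factor, was at 32.3 and 9.42 CPM (log2 ratio -1.78, -1.96 to -1.60), and Ddit4, an inhibitor of mTORC1, at 20.6 and 5.99 CPM (log2 ratio -1.78, -2.01 to -1.56). Ankrd37, a small HIF target, was at 52.1 and 16.6 CPM (log2 ratio -1.65, -1.79 to -1.51). These 4 differed more than the other members of the group apart from Egln3.

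Ero1l, the oxidase of the endoplasmic reticulum that supports disulphide formation, was at 127 CPM in NTT against 58.0 CPM in RTT cells (log2 ratio -1.13, -1.21 to -1.05). The mitophagy receptor Bnip3 was at 204 and 98.4 CPM (log2 ratio -1.05, -1.12 to -0.99), and its paralogue Bnip3l at 166 and 138 CPM (log2 ratio -0.27, -0.33 to -0.21). Hilpda, which blocks lipid breakdown in lipid droplets, was at 153 and 74.1 CPM (log2 ratio -1.05, -1.12 to -0.97). Below the call lay P4ha1, a collagen prolyl hydroxylase (-0.45), Pdk1, which turns pyruvate dehydrogenase off (-0.39), and Mif, a cytokine with the most UMIs of the group (-0.35). Adm, adrenomedullin, was the one hypoxia member above 0, with 29 and 93 UMIs and an interval that held 0 (log2 ratio 0.49, -0.12 to 1.15).

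Populations carry the names that the authors gave them, and they were merged into monocytes (Monocyte_1, Monocyte_3, Infl_Mono), macrophages (TAM_C1q, TAM_H2Ab1, TAM_Spp1, TAM_cycling, Ctsk_Macro, Macro) and dendritic cells (cDC1, cDC2, DC3). Some populations carried markers of another class. The 8 macrophage markers summed to 8343 CPM in the NTT and 35362 CPM in the RTT cells named Infl_Mono, and to 42100 CPM in the 29 RTT cells named Neutro against 5680 CPM in their NTT counterparts. Over all monocytes, the monocyte markers summed to 9941 and 4843 CPM and the macrophage markers to 14959 and 26672 CPM. Melanoma markers stayed at or under 124 CPM in each population of 25 or more cells and were not lower in RTT, with 13.8 and 31.6 CPM over all cells.

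Among populations with at least 50 cells in a library, the cells named TAM_Spp1 had the highest summed level of either group in both tumours. They held 13973 CPM of glycolysis members in NTT and 11188 CPM in RTT, 2.45 and 2.21 times the lowest of those populations. Their hypoxia members summed to 5455 and 3156 CPM. The cells under this name were not alike in the tumours, with 8633 and 22661 CPM of macrophage markers and 7539 and 2519 CPM of monocyte markers. Spp1, the gene in the name, was below its Monocyte_1 level (269 CPM) in the NTT cells so named (167 CPM), and in RTT it was nearly as high in TAM_C1q (3977 CPM) as in TAM_Spp1 (3982 CPM), so the name is used here only as a label. In NTT, the Neutro cells came next for the hypoxia members at 5243 CPM, with an interval that overlapped that of TAM_Spp1. Without Mif, which had the most UMIs of the group, Neutro (4327 CPM) came before TAM_Spp1 (4102 CPM) in NTT, again with overlapping intervals. In RTT, the NK_cells came next for both groups, at 10611 and 2848 CPM. At the other end of those populations were DC3 for glycolysis members in NTT (5696 CPM) and cDC1 for the rest, with 1341 CPM of hypoxia members in NTT and 872 CPM in RTT.

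**Figure D1:**
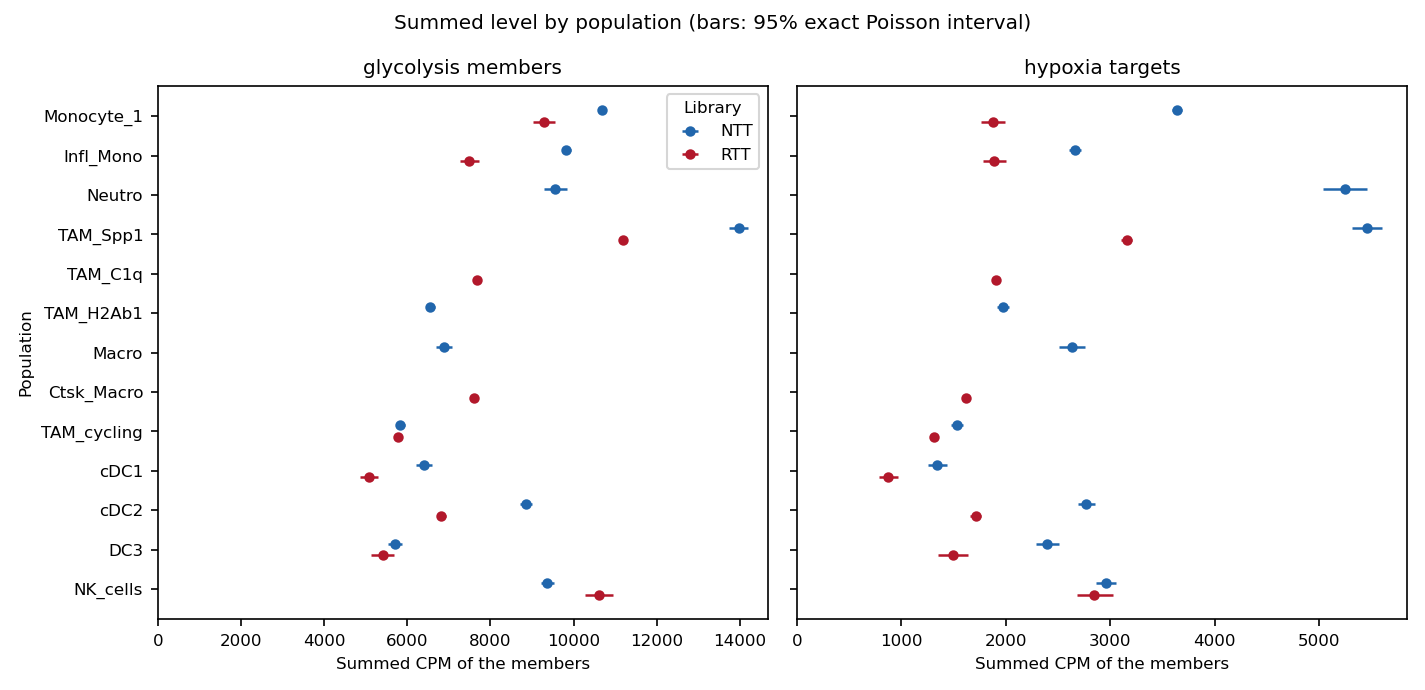
Summed CPM of the 18 glycolysis members (left) and the 15 hypoxia members (right) in each population with at least 50 cells in a library. Points are libraries (blue NTT, red RTT) with 95% exact Poisson intervals; TAM_Spp1 is highest in both libraries, and TAM_cycling nearly coincides between them for the glycolysis members.

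Single members departed from that order. Hilpda was at 1832 CPM in NTT Neutro cells, at 660 CPM in NTT against 303 CPM in RTT TAM_Spp1 cells, and at 12.6 and 22.9 CPM in TAM_cycling cells. With each cell thinned to 2000 UMIs, 62.5% of the NTT Neutro cells had a UMI of Hilpda, against 2.56% of NTT cDC1 cells, which had the lowest level of the hypoxia members. Vegfa and Slc2a3 were also highest in NTT Neutro cells, at 199 and 342 CPM, although the Vegfa interval (159.7 to 244) overlapped that of NTT TAM_Spp1 (116 to 163). NK_cells had the next level of Slc2a3 in NTT (95.7 CPM) and the highest in RTT (62.4 CPM). Egln3 reached 127 CPM in NTT TAM_Spp1 cells and 113 CPM in NTT Neutro cells, whose intervals overlapped.

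Dendritic cells had their own pattern. Pfkfb3 and Ndrg1 were highest in DC3 cells, with 280.2 and 404 CPM in NTT and 166 and 173 CPM in RTT, although the NTT intervals overlapped those of TAM_Spp1. Pfkp and Aldoc, the aldolase isoform best known from brain, were highest in conventional dendritic cells in NTT, Pfkp at 357 CPM and Aldoc at 125 CPM in cDC2. Ldha was highest in NK_cells of either tumour, at 1941 and 2615 CPM. In RTT, Ctsk_Macro cells, a group with osteoclast-like markers that had no cell in NTT, held the most Aldoa (2426 CPM) and little Slc16a3 (6.15 CPM) and Slc2a1 (23.4 CPM).

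**Figure D2:**
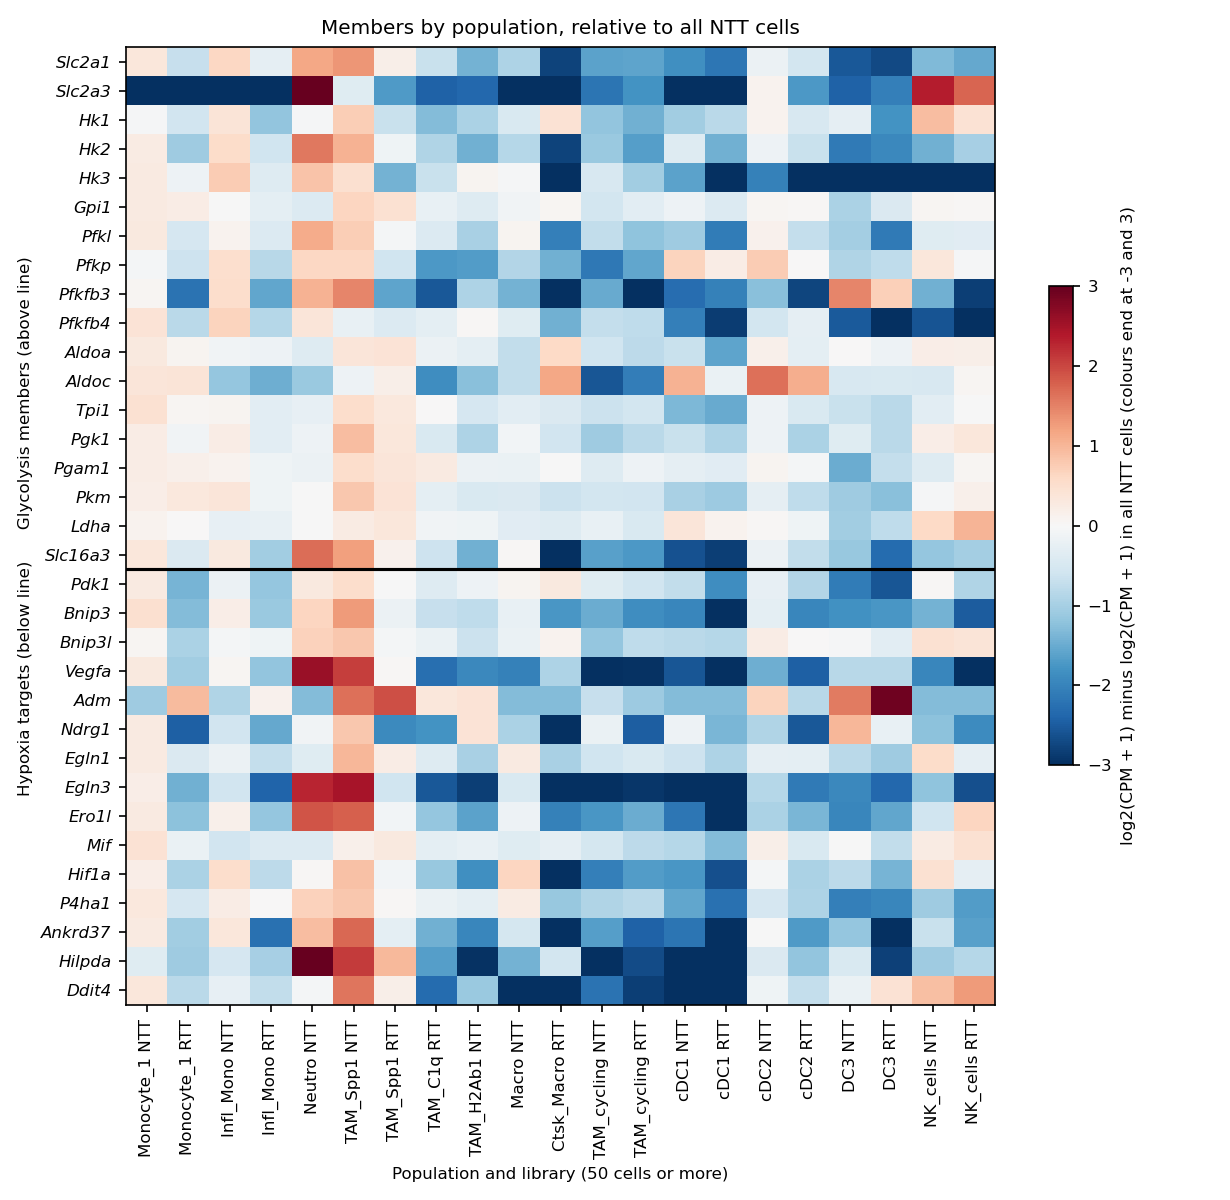
Each member (rows, glycolysis above and hypoxia below the line) in each population and library with at least 50 cells (columns), as log2(CPM + 1) minus its value over all NTT cells. Red is higher and blue lower; the TAM_Spp1 and Neutro columns of NTT are red for most hypoxia members, and the Slc2a3 row is most red in the NTT Neutro and the NK_cells columns.

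Pfkfb3, Ndrg1 and Ankrd37 were 2-fold lower in each of the 3 classes. In monocytes, 5 of 17 glycolysis and 9 of 14 hypoxia members compared were 2-fold lower in RTT, against 7.28% of all genes, and none was higher, against 3.89%. Pfkfb3 was at 120.5 CPM in 1615 NTT and 27.3 CPM in 199 RTT monocytes (log2 ratio -2.14, -2.70 to -1.63). Pfkfb4 was at 59.2 and 22.9 CPM (log2 ratio -1.37), and Hk1, Hk2 and Slc16a3 also passed 2-fold, at log2 ratios of -1.06, -1.19 and -1.01. Among the hypoxia members, Egln3 (log2 ratio -2.02), Ndrg1 (-1.95), Ankrd37 (-1.94), Bnip3 (-1.61), Ero1l (-1.47), Pdk1 (-1.45), Vegfa (-1.40), Hif1a (-1.18) and Ddit4 (-1.01) did so. The RTT side of Egln3, Ddit4 and Vegfa rested on 6, 13 and 16 UMIs. The median over the glycolysis members was -0.70 and over the hypoxia members -1.29, with -0.05 over all genes.

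Among monocytes, dendritic cells, NK_cells and Neutro together, 756 NTT and 137 RTT cells held at least 1000 CPM of the macrophage gene C1qa. Without such cells, 6 glycolysis and 6 hypoxia members were 2-fold lower in monocytes. Hilpda then moved from a log2 ratio of -0.64 to 0.05, and Vegfa to -0.52, whereas Bnip3 went to -2.23 and Pfkfb3 to -3.15. Thinned to 2000 UMIs per cell, 2 glycolysis and 5 hypoxia members were called. No share over all genes was computed for these counts, and the number of RTT monocytes left without the C1qa cells was not recorded. The part of macrophage transcripts in the monocyte values was not tested.

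The macrophages of the tumours were made up differently, the 582 NTT cells mostly of TAM_Spp1 (193), TAM_H2Ab1 (169), TAM_cycling (103) and Macro (100), and the 4009 RTT cells mostly of TAM_C1q (2001), TAM_cycling (947), TAM_Spp1 (719) and Ctsk_Macro (280). In macrophages, 2 of 18 glycolysis and 6 of 14 hypoxia members were 2-fold lower in RTT, against 6.96% of all genes, and none was higher, against 5.28%. Pfkfb3 was at 84.5 CPM in 582 NTT and 15.3 CPM in 4009 RTT macrophages (log2 ratio -2.47, -2.64 to -2.30), and Hk3 at 57.9 and 28.4 CPM (log2 ratio -1.02, -1.20 to -0.85). Egln3 was at 26.8 and 3.68 CPM (log2 ratio -2.87, -3.20 to -2.53), the widest gap of any member in a class. Ndrg1 (-2.35), Ddit4 (-1.71), Vegfa (-1.65), Ankrd37 (-1.39) and Ero1l (-1.10) were the others. Of the enzymes, Pgam1 (0.20), Tpi1 (0.12), Aldoa (0.12), Aldoc (0.32) and Gpi1 (0.02) lay above 0. However, Tpi1, Aldoa and Aldoc were below 0 with cells weighted equally, Tpi1 and Aldoa also at equal depth and Aldoc also without Ctsk_Macro. Gpi1 changed sign under an alternative too. Of the hypoxia members, only Bnip3l lay above 0 (0.004, -0.10 to 0.11), and its interval held 0.

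In dendritic cells, 1 of 16 glycolysis members, Pfkfb3 at 97.2 and 28.6 CPM (log2 ratio -1.77, -2.12 to -1.43), and 3 of 11 hypoxia members, Ndrg1 (-1.94), Ankrd37 (-1.55) and Bnip3 (-1.27), were 2-fold lower, against 7.8% of all genes. The glycolysis count was not above that share. None was higher, against 6.14%. Pfkfb4 was above 0 there, at 18.4 and 27.4 CPM (log2 ratio 0.57, 0.08 to 1.07), while it was below 0 in monocytes and in macrophages. Gpi1 and Pgam1 were also slightly above 0 (0.15 and 0.13). Of the hypoxia members, only Egln1 was above 0 there (0.05, -0.19 to 0.29), with an interval that held 0.

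Population by population, the gap was wide in the cells with the highest levels and small in cycling macrophages. In TAM_Spp1, 7 of 17 glycolysis and 8 of 14 hypoxia members were 2-fold lower, against 13.3% of all genes, with Egln3 at 127 and 14.2 CPM (log2 ratio -3.16), Pfkfb3 at 280.1 and 33.5 CPM (-3.06) and Ndrg1 at 358 and 53.2 CPM (-2.75). Monocyte_1 had 4 of 17 and 10 of 14 lower, against 11.6% of all genes, and Infl_Mono 7 of 16 and 6 of 12, against 9.64%. In cDC2, 1 of 16 and 3 of 11 were lower, against 7.05%, so the glycolysis count was not above that share. Of the 12 members compared in cDC1 and the 13 in DC3, only Ndrg1 was 2-fold lower, in each of them. These counts were near the shares of all genes, 5.97% and 6.48%.

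TAM_cycling, macrophages that express division genes, held 5835 CPM of glycolysis members in NTT and 5766 CPM in RTT. In them only Pfkfb3 (log2 ratio -1.83) and Ndrg1 (-2.30) were 2-fold lower, of 17 and 11 compared, against 4.7% of all genes, and Hilpda (0.86), Pfkp (0.59) and Hif1a (0.39) were above 0. In NK_cells the glycolysis members summed to 9369 CPM in NTT against 10611 CPM in RTT, and none of 12 passed 2-fold. Of 9 hypoxia members compared there, Bnip3 was lower (log2 ratio -1.11), against 7.62% of all genes. Ero1l was higher, at 82.9 and 198 CPM (log2 ratio 1.26), against 2.9%, the one member 2-fold higher in any population. Pfkfb3 was 2-fold lower in 5 of the 6 populations in which it was compared, and Ndrg1 in 6 of 8.

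With levels averaged over both libraries as weights, shifts in population shares made up 17.9% of the gap in the glycolysis members (4.45% to 31.3% with NTT or RTT levels as weights). For the hypoxia members they made up -7.75%, that is, a shift in the opposite direction (-19.9% to 4.35%). Ctsk_Macro, absent from NTT, was given its RTT level, and the NTT level of TAM_C1q rested on 17 cells. Of the members lower in RTT, shares made up the largest part of the gap for Ldha (68.7%, 36.6% to 100.8% by the weights). Next came Slc2a3 (54.1%, 22.4% to 85.8%), Pfkp (52.6%, 37.7% to 67.4%) and Ddit4 (51.6%, 49.7% to 53.5%).

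Genes induced by tissue dissociation were lower in RTT too, except in dendritic cells. The 12 genes of that list, Fos, Jun and Hspa1a among them, summed to 2369 CPM in NTT against 1439 CPM in RTT cells, to 2673 and 2124 CPM in monocytes, to 1736 and 1383 CPM in macrophages, to 5599 and 2919.6 CPM in TAM_Spp1, and to 15624 CPM in NTT Neutro cells. In dendritic cells they were at 1419 and 1570 CPM. The cells with at most 2 UMIs of the list among 2000 drawn were 1283 NTT and 2906 RTT cells, with 751 and 699 CPM of the list. In them, 3 of 18 glycolysis members (Slc2a3, Pfkp, Pfkfb3) and 6 of 14 hypoxia members were 2-fold lower, against 9.77% of all genes, and the hypoxia median was -0.79. Pfkfb3 (log2 ratio -2.48), Ndrg1 (-2.23) and Egln3 (-2.18) stayed near their values over all cells, whereas Hilpda was at -0.07.

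The classes differed in this respect. In such monocytes, 567 NTT and 81 RTT cells, 4 of 17 glycolysis and 7 of 11 hypoxia members were 2-fold lower, against 8.49% of all genes, with a hypoxia median of -1.37. In such macrophages, 312 NTT and 2448 RTT cells, 1 of 17 glycolysis members (Pfkfb3) and 1 of 12 hypoxia members (Ndrg1) were so. These were 5.88% and 8.33%, near the 5.6% of all genes. The medians were -0.02 and -0.21, and Hilpda was above 0 (0.41). Egln3 and Ddit4 fell below the minimum of UMIs in those macrophages and were no longer compared, with log2 ratios of -2.04 and -2.02. Of the 6 macrophage calls that could still be compared, Pfkfb3 (log2 ratio -2.03) and Ndrg1 (-2.47) were kept, while Hk3 (-0.96), Vegfa (-0.76), Ankrd37 (-0.64) and Ero1l (-0.20) were not. In such dendritic cells, Pfkfb3 of 15 glycolysis members (6.67%) and Ndrg1 of 8 hypoxia members (12.5%) were 2-fold lower, against 7.69% of all genes. Bnip3 was at -0.98, and Ankrd37 (-1.34) was no longer compared. The part of dissociation in these differences was not tested.

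At equal depth, fewer RTT than NTT cells had several hypoxia targets detected at a time. A lower level of these genes lowers that share by itself, so it restates the levels above in terms of cells. Mif and Hif1a were left out here, and each of 2868 NTT and 4777 RTT cells was thinned to 2000 UMIs (107 and 63 shallower cells were left out). Of the 13 remaining targets, 3 or more were detected in 29.4% (27.8 to 31.1) of NTT and 11.6% (10.7 to 12.6) of RTT cells. In monocytes the shares were 32.9% and 11.7%, in macrophages 31.8% and 12.1%, and in dendritic cells 15.1% and 6.86%, with intervals that did not overlap in any of the 3 classes. Of the dendritic cells, cDC2 stood at 20.4% and 6.93% and DC3 at 11.7% and 11.5%. TAM_Spp1 stood at 62.3% (55.0 to 69.2) in NTT and 23.6% (20.5 to 26.9) in RTT, and NTT Neutro at 56.8%. In cDC1, 2.56% and 1.85% of cells did so, 2 and 1 cells.

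**Figure D3:**
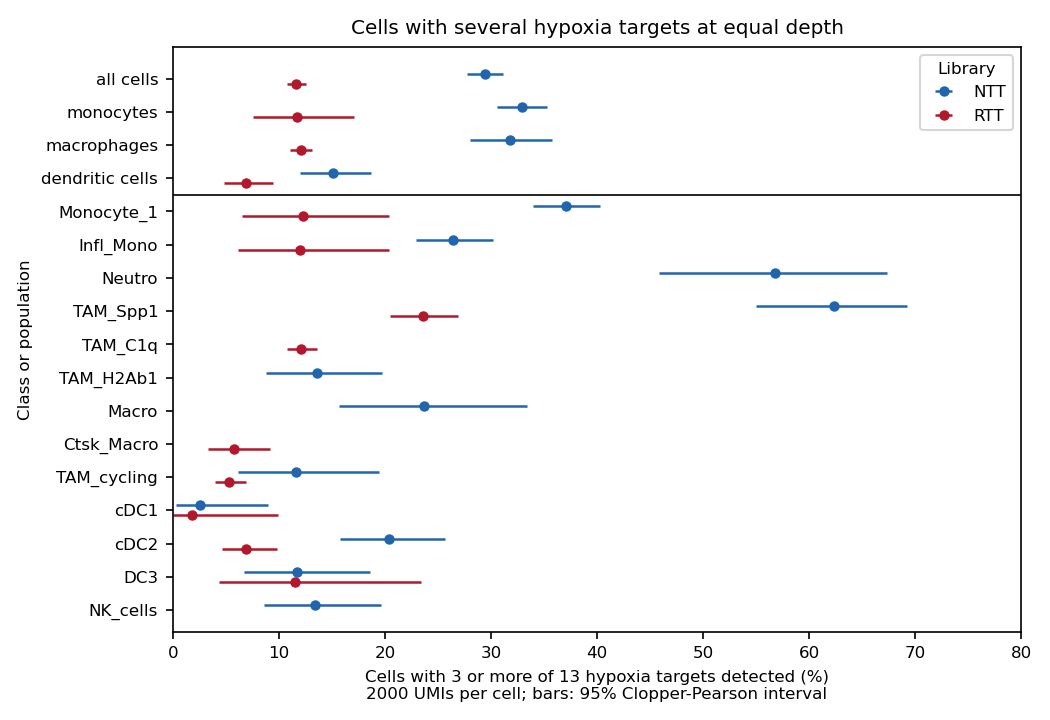
Percent of cells with 3 or more of 13 hypoxia targets detected, by class (above the line) and population, after thinning each cell to 2000 UMIs. Points are libraries (blue NTT, red RTT) with 95% Clopper-Pearson intervals; the NTT points of the 3 classes and of TAM_Spp1 lie clear to the right of the RTT points.

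Members of both groups were found together in single cells. In NTT Monocyte_1 cells, the glycolysis members summed to 6929 CPM in cells with none of the 13 targets detected, to 8489 and 10579.9 CPM in those with 1 and 2, and to 15182 CPM in those with 3 or more. The last bin was 2.19 times the first (2.10 to 2.29), and Pearson's r over 941 cells of that library was 0.59. The like fold was 2.24 in NTT Infl_Mono, 2.42 in RTT TAM_C1q, 1.95 in RTT TAM_Spp1, and 2.36 and 1.84 in NTT and RTT cDC2. RTT TAM_cycling had 1.67, and RTT Ctsk_Macro 0.98 (0.85 to 1.12), with 7868 CPM at none and 7719 CPM at 3 or more, the latter from 16 cells. All cells had the same 2000 UMIs, and the Monocyte_1 cells with 3 or more targets had the lowest mean full depth of the 4 bins (5344 UMIs, against 5701 to 6101). That bin had the highest mean full depth in NTT Infl_Mono (5449 UMIs, against 5046 to 5131), in RTT TAM_cycling (13687, against 12672 to 13186) and in RTT cDC2 (6383, against 6244 to 6340). In each case the points are cells of 1 library and no test was made.

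**Figure D4:**
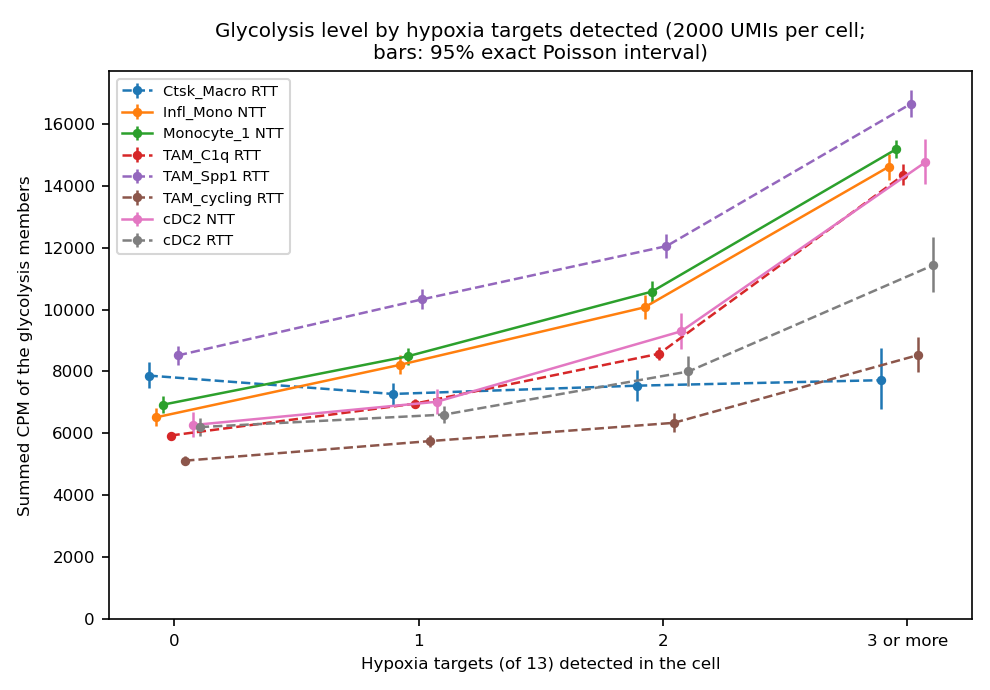
Summed CPM of the glycolysis members by the number of hypoxia targets detected in the cell, at 2000 UMIs per cell, for each population with at least 200 cells in a library. Lines are populations (solid NTT, dashed RTT) and bars 95% exact Poisson intervals; all lines climb except that of RTT Ctsk_Macro.

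Across the 21 sums of a population in a library with at least 50 cells, the sums of both groups went together (Pearson's r = 0.83), and the points share the 2 libraries. The genes most like the glycolysis members, among those with at least 500 UMIs, were Rgcc (r = 0.84), Btg3, Abhd18, Emb, Impa2, Jmjd6, Higd1a and Arid5b. The genes most like the hypoxia members were Ptgs2 (r = 0.90), which encodes cyclooxygenase 2, Tnfrsf1b, Rgcc, Junb, Tnfrsf23, Atg2a, Homer1 and Cxcr4. Junb is on the dissociation list, and Higd1a and Cxcr4 are on the list of further hypoxia targets used below. Of the members, Pkm (r = 0.93) and Pgk1 (r = 0.91) followed the glycolysis sum most closely, and Ero1l (r = 0.92), Egln3 (r = 0.91) and Ankrd37 (r = 0.90) the hypoxia sum, to which they contribute, while Ndrg1 (r = 0.38) and Adm (r = 0.13) did not.

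Genes of neighbouring pathways did not all go the same way. Of 27 further hypoxia targets compared over all cells, 20 were below 0, against 4645 of all 10258 genes. Among the 27, 7 were 2-fold lower, against 11.6% of all genes. Nos2, inducible nitric oxide synthase, was lowest at 22.9 and 1.12 CPM (log2 ratio -4.36), followed by Mxd1, a partner of MAX (-3.18), and Bhlhe40, a transcriptional repressor (-1.49). Arg1, arginase 1, was above 0, at 169 and 310.4 CPM (0.88). Of 11 genes of the HIF machinery, only Vhl, which marks hydroxylated HIF-1α for degradation, was 2-fold lower, at 28.4 and 13.8 CPM (log2 ratio -1.04), against 11.6% of all genes, and Arnt, the partner of HIF-1α, was at -0.79. Epas1, which encodes HIF-2α, was at 2.75 and 3.11 CPM.

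Most mitochondrial genes listed lay above 0, and few passed 2-fold, against 9.09% of all genes that were 2-fold higher. Of all 10258 genes, 5613 lay above 0, with a median of 0.08. Of 24 genes of the citrate cycle and pyruvate oxidation, 23 lay above 0 with a median of 0.68, and 3 were 2-fold higher: Idh3a, an isocitrate dehydrogenase subunit (log2 ratio 1.19), Suclg2 (1.12) and Pdp1 (1.00). The exception was Pdk3 (-0.90), a kinase that, like Pdk1, turns pyruvate dehydrogenase off. Of 22 respiratory chain genes, 21 lay above 0 with a median of 0.63, and Cyc1, cytochrome c1, was 2-fold higher (1.09). In monocytes all 22 lay above 0 (median 0.57) and in macrophages 21 did (median 0.44), against 3283 of 6938 and 5185 of 9608 genes. In TAM_cycling 14 of 22 did (median 0.10), near all genes there (4683 of 8219, median 0.08). Without the Ctsk_Macro cells, which NTT lacked, the respiratory chain median was 0.46 over all cells, with none 2-fold higher, and 0.24 in macrophages, and the citrate cycle median went from 0.68 to 0.48 over all cells and from 0.48 to 0.25 in macrophages. Of 15 further glycolysis genes, 3 were 2-fold higher, the lactate and pyruvate importer Slc16a7 (2.02), Slc2a8 (1.24) and Ldhb (1.17), against 9.09% of all genes, and 1 was lower, the lactate transporter Slc16a1 (-1.22), against 11.6%. The 7 pentose phosphate genes had a median of -0.18 and none passed 2-fold.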

How the data were processed

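CD45+ cells of 1 NTT and 1 RTT tumour gave a matrix of raw UMI counts, deposited by the authors (7815 cells, 12584 genes) and a table with each cell's library and population. Per their methods, the authors ran cellranger count 6.1.1 on the mm10 reference, filtered cells on detected genes (over 1000) and on mitochondrial and ribosomal reads, kept genes found in 3 experiments, 1 of them probe-based, and named populations on a map shared with another melanoma model. The series record gives day 12, and the methods name another day for such experiments.

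Counts were summed over cells and scaled to CPM by that sum (Python 3.11.15, numpy 2.4.6, scipy 1.17.1). Levels have exact Poisson, shares Clopper-Pearson and log2 ratios exact binomial intervals, all for counting error only; 3′ UMI counts are not scaled by length. With 1 library per group no test was run. Ratios needed 100 UMIs over both libraries and 50 cells in each. Where a library had 0 UMIs, a floor of 3 UMIs was used. Members and lists were chosen with earlier results of these data known. Full values were given for members past 2-fold over all cells or in a class, those with most UMIs and those whose direction differed between classes, and the 8 genes with the highest r to each group were named. The ratio and thinning code was tested on simulated data. The libraries share 7 barcodes, which were kept apart by library. No doublet removal is stated in the sources used here, and Scrublet (scanpy 1.11.5) marked 0 cells in either library, so its calls could not be used and doublets stayed in. Alternatives covered scaling (TMM from edgeR 4.0.16), depth, minimum counts, fold, cells and weights.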

Additional observations from a re-analysis of the deposited data

How the results depend on the processing

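With 1 library per group no replicate could be left out, and every interval covers counting error only. No paired analysis was possible because each group has 1 library and no result comes from a test. Of the counts, shares and level ratios recomputed, 212 values stayed, 31 moved and 1 reversed. A count stayed if equal to or within 1.5-fold of the main one, and a level ratio or share of cells if within its counting error. The parts of the gap from population shares could only be marked as moved or reversed. Of the other values, mostly ratios and shares of single members, 1096 stayed and 416 moved, and no member past 2-fold changed sign under any alternative run. The share over all genes was computed at 2-fold only, in the main setting and in cells with at most 2 stress UMIs. Counts under the other alternatives have no such share and do not set the members against all genes. Called at 1.5-fold, 10 glycolysis members were lower over all cells, 9 in monocytes, 4 in macrophages and 3 in dendritic cells, where 5 hypoxia members were. In cells with at most 2 stress UMIs (chosen after seeing the data), 3 glycolysis members were lower over all cells and 1 in macrophages, and 1 hypoxia member in macrophages and 1 in dendritic cells, where fewer members were compared: Egln3 (-2.04) and Ddit4 (-2.02) in macrophages and Ankrd37 (-1.34) in dendritic cells fell below the minimum. Thinned to 2000 UMIs, 2 glycolysis and 5 hypoxia members were lower in monocytes and 4 glycolysis members in macrophages. Macrophages had 7 glycolysis members lower with cells weighted equally (mean of per-cell CPM), 1 without the largest cell of each member and 1 without Ctsk_Macro (added after seeing the data). With a minimum of 500 UMIs, 5 hypoxia members were lower in monocytes and 0 glycolysis members in dendritic cells, where fewer genes were compared, and with a minimum of 20 UMIs or none, 3 and 5 were in dendritic cells. Without a minimum, 1 hypoxia member, Adm, was higher in monocytes. Population shares made up 4.45% (NTT levels) or 31.3% (RTT levels) of the glycolysis difference, and -19.9% or 4.35% of the hypoxia difference, which reversed by the choice of weights. Thinned to 1000 UMIs, an alternative added after seeing the data for the shares, the gap in cells with 3 or more targets was 10.5 percentage points over all cells, 11.7 in monocytes and 13.9 in macrophages, and the level ratio across target bins was 2.04 in NTT Monocyte_1, 2.83 in RTT TAM_C1q and 2.52 in RTT cDC2. For the other moves the cause was not tested. Removing doublets by Scrublet's own calls was not run, since it marked 0 cells. Without the 5% of cells with the highest scores, also chosen after seeing the data, 5 glycolysis and 9 hypoxia members were lower over all cells.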
